A study of Mus musculus with 6 samples.

Results

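Granins are acidic proteins of dense core vesicles, the organelles in which neurons and endocrine cells store peptide signals, and they are sorted into these vesicles together with the enzymes that cut propeptides into active peptides. The 10 genes described here are 6 of the granin family (Vgf, Chga, Chgb, Scg2, Scg3 and Scg5) and 4 that encode processing enzymes (Pcsk1, Pcsk2, Cpe and Pam). They were taken by gene symbol from a table of 47086 loci, and each symbol had 1 locus there, so all 10 were found. The set was chosen by function, with Vgf selected on its lower value in Fmr1-KO in earlier results from the same 6 libraries. Differences between genotypes in these 10 genes are therefore given as a description, with no test.

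The libraries were made from total RNA of primary hippocampal cultures of mice with a C57BL/6 background, with 3 libraries labelled WT and 3 labelled Fmr1-KO. The study's methods describe cultures started from newborn mice and harvested for RNA after 14 days in vitro, with no drug treatment given for these samples. Fmr1 encodes FMRP, an RNA-binding protein whose loss causes fragile X syndrome, and the comparison asks how transcript levels differ in hippocampal cultures without it. For its animals in general, the study's methods describe male Fmr1 KO mice and WT littermates, without stating the sex of the cultured pups. The culture, litter and sex behind each library are not given in sources used here, so the spread between the 3 libraries of a genotype may be technical. The values are FPKM, which scale the fragments of a transcript by its length and by the mapped fragments of the library and so allow levels to be compared between genes.

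Propeptides are cut at pairs of basic residues by the prohormone convertases PC1/3 (Pcsk1) and PC2 (Pcsk2), the exposed basic residues are trimmed by carboxypeptidase E (Cpe), and many peptides are then amidated at their end by peptidylglycine alpha-amidating monooxygenase (Pam). Scg5 encodes 7B2, a granin-like chaperone of PC2, and Scg3 encodes a granin that binds cholesterol-rich membrane and Chga. Vgf, Chga, Chgb and Scg2 encode propeptides that these enzymes cut. Vgf was first found as a gene induced by nerve growth factor, and in hippocampal neurons its transcript is known to increase with BDNF and with synaptic activity.

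Libraries correlated at a Pearson's r of 0.970 to 0.978 within a genotype and 0.962 to 0.977 between genotypes, across 13195 loci that are not independent replicates. The FPKM of all loci summed to between 1803679 and 2303083 in a library, of which the short neuronal RNA Bc1 made up 73.7 to 80.6%. The number of reads is unknown, so counting error cannot be given. Fmr1 itself had an FPKM of 19.0, 19.5 and 19.7 in WT against 23.1, 21.8 and 18.5 in Fmr1-KO, so its transcript level is no check of the genotype labels, which all directions here rest on. Other differences also went with genotype. The Y-linked gene Eif2s3y had 9.53 ± 0.233 FPKM in WT against 21.0 ± 1.42 in Fmr1-KO, and Gabra2, a gene known to differ between C57BL/6 substrains, had 122 ± 2.90 and 31.0 ± 0.958 (SD, n = 3 each). Xist, transcribed from the inactive X of female cells, had 59.9, 77.9 and 74.6 FPKM in WT against 53.0, 61.3 and 60.8 in Fmr1-KO, with overlap between the genotypes. These genes were chosen after their values were seen, and the sex of the pups and the substrain cannot be told apart from genotype in these libraries.

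Vgf was the member that stood lowest in Fmr1-KO. The Vgf locus (XLOC_011965, GRCm38 chromosome 5, 137025302 to 137033351) had an FPKM of 103, 105 and 94.9 in WT against 65.6, 54.9 and 59.2 in Fmr1-KO. All Fmr1-KO libraries lay below all WT libraries, and the gap from 94.9 to 65.6 was wider than the range inside either genotype. The mean was 101 ± 5.13 in WT against 59.9 ± 5.38 in Fmr1-KO (SD, n = 3), which is 59.5% of WT. On the scale of log2(FPKM + 0.1), the difference between genotypes was -0.75 with a standard error of 0.07 from limma, and 70 of the 13195 tested loci had a lower value. These are RNA from whole cultures, in which fewer cells of a type and less RNA per cell cannot be told apart.

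The other propeptide genes of the family were also lower in Fmr1-KO, by smaller amounts. Chgb encodes chromogranin B, a propeptide that also helps form the granule core, and had an FPKM of 65.2, 69.9 and 69.5 in WT against 57.2, 53.5 and 62.0 in Fmr1-KO, a log2 difference of -0.25 (standard error 0.06). Chga encodes chromogranin A, the precursor of vasostatin and other peptides, and had 56.2, 57.5 and 60.8 in WT against 54.2, 44.1 and 51.1 in Fmr1-KO, a log2 difference of -0.23 (standard error 0.08). The highest Fmr1-KO library of Chga, at 54.2, lay only just under the lowest WT library, at 56.2. Scg2 encodes secretogranin II, the precursor of secretoneurin, and had 81.7, 81.3 and 80.1 in WT against 74.4, 68.5 and 66.7 in Fmr1-KO, a log2 difference of -0.22 (standard error 0.05). The SD of Scg2 was 1.01% of the mean in WT and 5.71% in Fmr1-KO. In Chga, Chgb and Scg2 the Fmr1-KO mean was more than a WT SD below the WT mean, and in none of them did libraries of the genotypes overlap.

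Scg3 and Scg5, the members of the family with sorting and chaperone roles, showed the smallest differences of the family. Scg3 had an FPKM of 152, 151 and 169 in WT against 138, 142 and 147 in Fmr1-KO, a log2 difference of -0.15 (standard error 0.06). Scg5 had 64.3, 66.5 and 59.7 in WT against 59.0, 54.6 and 54.1 in Fmr1-KO, a log2 difference of -0.18 (standard error 0.06). The genotypes of Scg5 were separated by 59.7 against 59.0, less than the spread inside either genotype.

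The processing enzymes differed among themselves. Pcsk1 had an FPKM of 12.7, 15.4 and 13.5 in WT against 11.2, 10.6 and 9.63 in Fmr1-KO, with means of 13.9 ± 1.36 and 10.5 ± 0.807 (SD, n = 3). Its Fmr1-KO mean was 75.6% of WT, a log2 difference of -0.40 (standard error 0.09), second in size to Vgf among the 10 genes. Pam had 60.2, 64.4 and 60.3 in WT against 55.0, 55.8 and 53.8 in Fmr1-KO, a log2 difference of -0.17 (standard error 0.05), with no overlap between the genotypes. Pcsk2 had 45.2, 45.3 and 44.3 in WT against 45.5, 42.3 and 43.8 in Fmr1-KO, a log2 difference of -0.04 (standard error 0.05), and its highest and lowest values were both in Fmr1-KO. Cpe had 1604, 1516 and 1610 in WT against 1587, 1594 and 1622 in Fmr1-KO, a log2 difference of 0.02 (standard error 0.05), and the Fmr1-KO libraries of Cpe lay inside or just above the WT range. The convertase gene Pcsk1 was thus lower in all Fmr1-KO libraries while the convertase gene Pcsk2 and the carboxypeptidase gene Cpe overlapped with WT. Antisense transcripts Pcsk2os1 and Pcsk2os2 overlap exons of Pcsk2, and B230216N24Rik overlaps exons of Pam on the same strand, so reads of these genes could be shared, and no source used here says whether counting used strand.

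**Figure D1:**
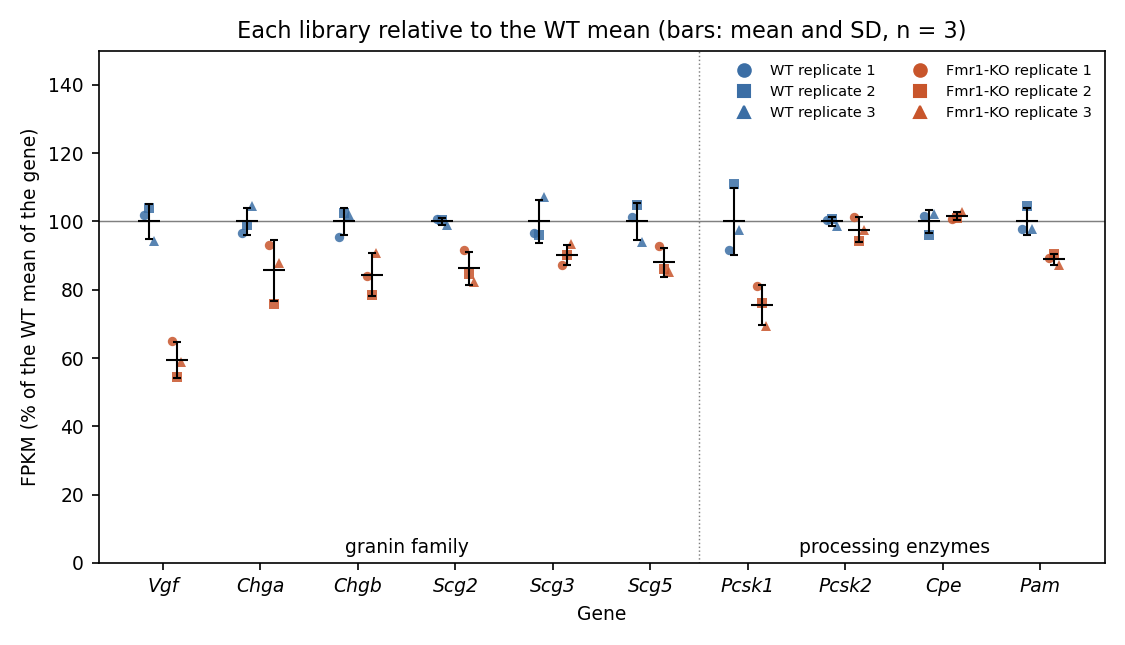
FPKM of each gene in each library as a percentage of the WT mean of that gene (y axis, from 0), with WT in blue, Fmr1-KO in orange, marker shape giving the replicate number and black bars the mean and SD (n = 3). Vgf is lowest at 59.5% of WT, Pcsk1 is next at 75.6%, and Pcsk2 and Cpe overlap with WT.

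In 8 of the 10 genes, all Fmr1-KO libraries lay below all WT libraries, against 10.3% of the tested loci with such a separation downward and 10.8% upward. At an unadjusted p below 0.05 in limma, 8 of the 10 genes were lower and 0 higher, against 7.77% of the tested loci lower and 6.99% higher. After Benjamini-Hochberg adjustment over all loci, 1 of the 10 (Vgf) was lower and 0 higher, against 0.174% of the tested loci lower and 0.0909% higher. Because the same contrast entered the choice of the genes, nothing is read from these counts. The median log2 difference of the 10 genes was -0.199, and -0.183 for the 9 without Vgf, beside 0.005 over all tested loci. It was -0.221 over the 6 granin family genes and -0.102 over the 4 enzymes.

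Among the Fmr1-KO libraries, replicate 1 had the highest value for 6 of the 10 genes (Vgf, Chga, Scg2, Scg5, Pcsk1 and Pcsk2) and so lay nearest to WT for most of the lowered members. Without that library, Pcsk2 also had no overlap between the genotypes and the median difference of the 10 genes was -0.233. WT replicate 2 had the highest WT value for 6 genes (Vgf, Chgb, Scg5, Pcsk1, Pcsk2 and Pam). The SD within a genotype was between 1.01% of the mean (Scg2 in WT) and 10.4% (Chga in Fmr1-KO). Leaving out each library in turn or changing the scale or the filter, the log2 difference of Vgf was between -0.82 and -0.69 and that of Pcsk1 between -0.46 and -0.32. The difference of Chga rested more on 1 library, at -0.14 without Fmr1-KO replicate 2 and -0.29 without Fmr1-KO replicate 1. Scg3 was at -0.10 without WT replicate 3 and Pcsk2 at -0.01 without Fmr1-KO replicate 2, while Cpe ranged from -0.01 to 0.04, on both sides of 0.

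The 10 genes covered a wide range of levels. Cpe, at 1577 ± 52.6 FPKM in WT (SD, n = 3), stood above 99.9% of the tested loci, and Scg3, at 158 ± 9.93, above 97.5%. Pcsk1 was the least abundant of the 10, above 56.3% of the loci. In WT the order was Cpe, Scg3, Vgf, Scg2, Chgb, Scg5, Pam, Chga, Pcsk2 and Pcsk1, and of neighbours in this order Chgb and Scg5, Scg5 and Pam, and Pam and Chga had overlapping libraries. In Fmr1-KO, Vgf came after Scg2, in the fourth place, and its libraries overlapped with those of Chgb, the next in order. Further overlaps in Fmr1-KO were between Chgb and Scg5, Scg5 and Pam, Pam and Chga, and Chga and Pcsk2.

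**Figure D2:**
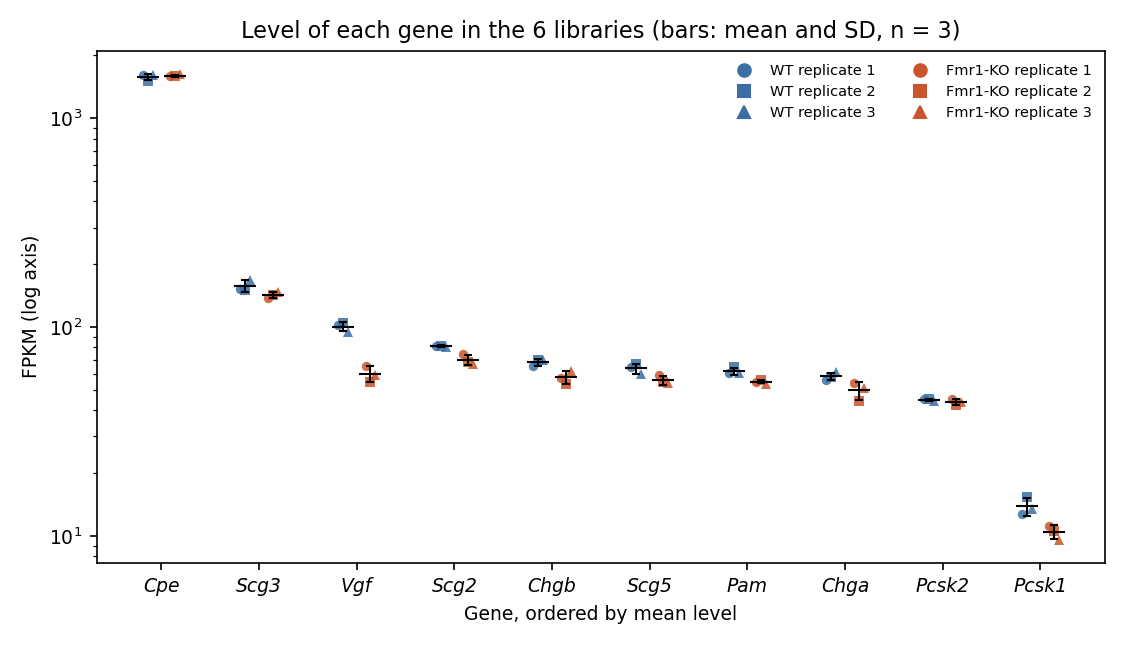
FPKM (log axis) of the 10 genes in the 6 libraries, ordered by mean level, with WT in blue, Fmr1-KO in orange, marker shape giving the replicate number and black bars the mean and SD (n = 3). Cpe lies near 1577 FPKM in WT and Pcsk1 near 13.9, and Vgf moves from above Scg2 in WT to below it in Fmr1-KO.

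Ratios within a library do not depend on how libraries were scaled, and the ratios that follow were chosen after values had been seen. The ratio of Vgf to Scg2 was 1.26, 1.29 and 1.18 in WT against 0.881, 0.800 and 0.888 in Fmr1-KO, so Vgf was above Scg2 in every WT library and under it in every Fmr1-KO library. Summed over the 6 granin family genes, FPKM was 529 ± 6.04 in WT against 435 ± 15.7 in Fmr1-KO (SD, n = 3). Vgf made up 19.7, 19.7 and 17.8% of this sum in WT against 14.6, 13.1 and 13.5% in Fmr1-KO. Vgf thus held a smaller share of the granin transcripts in each Fmr1-KO library.

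Among the enzymes, the ratio of Pcsk1 to Pcsk2 was 0.309 ± 0.0290 in WT against 0.239 ± 0.0164 in Fmr1-KO (SD, n = 3). The ratio of Scg5, the chaperone of PC2, to Pcsk2 was 1.41 ± 0.0606 and 1.27 ± 0.0333. Both ratios were lower in every Fmr1-KO library than in every WT library. All 4 enzymes together had 1697 ± 48.6 FPKM in WT against 1710 ± 16.95 in Fmr1-KO (SD, n = 3). Most of this sum was Cpe, and its libraries overlapped between the genotypes. Pcsk1, Pcsk2 and Pam, summed without Cpe, had 120 ± 4.0 FPKM in WT against 109 ± 2.32 in Fmr1-KO (SD, n = 3).

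Against the geometric mean of the other 9 genes in the same library, Vgf stood at 0.33, 0.30 and 0.18 on the log2 scale in WT and at -0.21, -0.39 and -0.31 in Fmr1-KO, a difference of -0.57. The same measure differed by -0.19 for Pcsk1, by 0.29 for Cpe and by 0.22 for Pcsk2, each with no overlap between the genotypes. The genes compared against include Vgf and other lowered genes, so a gene that stays level comes out higher on this measure. Cpe and Pcsk2 themselves had log2 differences of 0.02 and -0.04, with overlap. For Chga, Chgb, Scg2, Scg3, Scg5 and Pam it differed by -0.01 to 0.10, and the libraries overlapped.

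**Figure D3:**
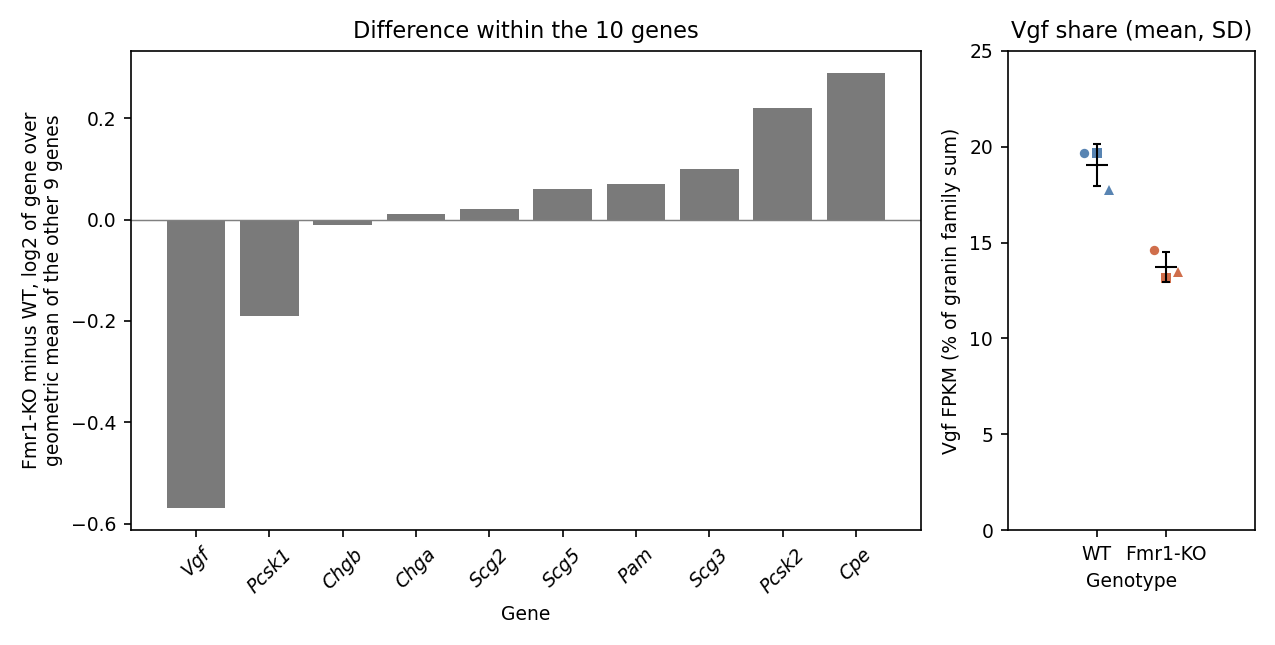
Left, the Fmr1-KO minus WT difference in log2 of each gene over the geometric mean of the other 9 genes of the same library (bars, difference of the means of 3 libraries, from 0). Right, Vgf as a percentage of the summed FPKM of the 6 granin family genes (points, libraries, WT in blue and Fmr1-KO in orange; black bars, mean and SD, n = 3), which lies at 17.8 to 19.7% in WT against 13.1 to 14.6% in Fmr1-KO.

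Gene structure and upstream sequence were not used to choose the genes. In the GENCODE vM21 annotation of GRCm38, the principal transcript of Vgf has 5 exons, with all 617 codons in 1 of them, and that of Scg2 has 2 exons, also with 617 codons in 1. The other granin family genes spread their coding sequence over several exons, from 5 for Chgb (677 codons) and Scg5 (212 codons) to 8 for Chga (463 codons) and 12 for Scg3 (471 codons). The enzyme genes have 14 exons for Pcsk1, 12 for Pcsk2, 9 for Cpe and 26 for Pam. The 10 genes lie on chromosomes 1, 2, 5, 8, 9, 12 and 13.

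The cAMP response element, TGACGTCA, is the site bound by CREB, a factor through which activity and BDNF are known to reach many neuronal genes. RefSeq windows (GRCm38.p6) from 250 bases before to 50 after the start were matched for 8 of the 10 genes, all but Vgf and Cpe, and searched on both strands. The 8-base element was found in 3 of the 8 (Scg2, Chgb and Pcsk1), against 1.79% of all 32851 promoters, and the 6-base part TGACGT, which also lies within the 8-base element, in 5 of the 8, against 7.51%. The 5-base half-site TGACG was in 7 of the 8, all but Pam, against 20.8%. For each of the 5 genes, the 30 bases around a match are shown, with the element in capitals. They are shown because these short elements are shared by granin family genes and the convertase gene Pcsk1.
Scg2 (chr1:79440076-79440105, minus strand): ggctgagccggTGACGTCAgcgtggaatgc
Chgb (chr2:132781559-132781588, plus strand): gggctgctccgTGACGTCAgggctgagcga
Pcsk1 (chr13:75089768-75089797, plus strand): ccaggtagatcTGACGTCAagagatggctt
Chga (chr12:102554885-102554914, plus strand): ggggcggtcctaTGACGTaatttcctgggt
Scg5 (chr2:113829249-113829278, minus strand): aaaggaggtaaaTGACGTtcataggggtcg
The element shown began 68 bases before the RefSeq start in Scg2, 72 in Chgb, 78 in Pcsk1, 44 in Chga and 175 in Scg5. These distances hold for the RefSeq start only. In GENCODE, Chgb starts at 132781278 and Scg2, on the minus strand, at 79440120, so there the element lies inside the gene. The Pcsk1 locus of the FPKM values starts at 75089420, also before the bases shown. The windows of Pcsk1 and Scg5 each held TGACGT at a further position, in Pcsk1 on the same strand at -50 and in Scg5 on the opposite strand at 40, counted from the start. A match describes the letters of the window only. Of the 5 genes with a match, all had Fmr1-KO libraries below WT, and so did Scg3 and Pam, in whose windows the 6-base part was not found, while Pcsk2, also without it, overlapped.

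Genes of the same pathway that are not among the 10 were compared through lists that hold none of them. Each gene was tested with limma across all 13195 loci with Benjamini-Hochberg adjustment, and counts over a list are a description. Over all tested loci, 7.77% were lower and 6.99% higher at an unadjusted p below 0.05. At an adjusted p below 0.05, 0.174% were lower and 0.0909% higher. Among 12 tested genes of 15 listed as other enzymes and inhibitors of prohormone processing, 0 passed an adjusted p of 0.05, 0 were lower and 1 was higher at an unadjusted p below 0.05, and the median log2 difference was 0.066. Pcsk1n, which encodes proSAAS, a granin-like inhibitor of PC1/3, had 101, 78.3 and 83.0 FPKM in WT against 92.9, 83.4 and 91.6 in Fmr1-KO, a log2 difference of 0.04 (standard error 0.09, adjusted p = 0.901 in limma). The largest differences in this list were in the convertase genes Pcsk4 (-0.27), Pcsk5 (0.19) and Pcsk7 (0.17), with adjusted p of 0.400, 0.377 and 0.432 in limma. The overlap of Pcsk1n between genotypes contrasts with the separated libraries of Pcsk1, but this difference between genes was not tested.

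Of 26 neuropeptide precursor genes, 19 were tested, 13 were lower and 6 higher, with a median log2 difference of -0.142. None passed an adjusted p of 0.05 in limma, while 5 were lower and 2 higher at an unadjusted p below 0.05. Pdyn, the precursor of dynorphins, had 1.71, 1.63 and 1.66 FPKM in WT against 1.17, 0.797 and 1.08 in Fmr1-KO, a log2 difference of -0.68 (standard error 0.18, adjusted p = 0.157 in limma). Agt, the precursor of angiotensins, had 2.77, 2.73 and 2.93 FPKM in WT against 1.76, 1.67 and 1.96 in Fmr1-KO, a log2 difference of -0.62 (standard error 0.11, adjusted p = 0.0753 in limma). Npff, the neuropeptide FF precursor, was at 0.242 to 0.911 FPKM in WT against 0.274 to 1.65 in Fmr1-KO, and its log2 difference of 0.50 had a standard error of 0.60. Npff reached the filter through its Fmr1-KO mean alone. Both Pdyn and Agt were low in level, and their libraries did not overlap between the genotypes.

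All 16 genes for the formation, transport and release of dense core vesicles and for the cofactors of Pam were tested, of which Eipr1 is listed in the table as Tssc1. None passed an adjusted p of 0.05 in limma, 2 were lower and 1 higher at an unadjusted p below 0.05, and the median log2 difference was -0.05. The log2 difference was -0.23 for Eipr1, which acts in vesicle maturation (standard error 0.07, adjusted p = 0.203 in limma), and 0.21 for the motor gene Kif1a (standard error 0.08, adjusted p = 0.271 in limma). Cyb561 encodes the cytochrome that passes electrons from ascorbate into the vesicle for Pam, and had 11.2 ± 1.36 FPKM in WT against 9.77 ± 0.515 in Fmr1-KO (SD, n = 3; adjusted p = 0.398 in limma). Its libraries overlapped between the genotypes, as did those of Kif1a.

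Of 26 genes for neuropeptide receptors and reported receptors of VGF peptides, 19 were tested, 10 were lower and 9 higher, with a median log2 difference of -0.015. None passed an adjusted p of 0.05 in limma, and 6 were lower and 2 higher at an unadjusted p below 0.05. Cckbr, a cholecystokinin receptor gene, had 4.69, 4.77 and 4.20 FPKM in WT against 3.30, 3.21 and 2.74 in Fmr1-KO, a log2 difference of -0.55 (standard error 0.10, adjusted p = 0.0753 in limma). Tacr3 and Crhr1, receptor genes for neurokinin B and corticotropin-releasing hormone, differed by -0.34 and -0.30 (adjusted p = 0.190 and 0.212 in limma). For the receptors reported to bind the VGF peptide TLQP-21, C1qbp had 20.8 ± 1.48 FPKM in WT against 21.2 ± 0.907 in Fmr1-KO (SD, n = 3), while C3ar1, also a gene of microglia, had 0.256 ± 0.0492 and 0.101 ± 0.0298 and was below the filter of 1 FPKM.

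Vgf, Scg2 and Pcsk1 are known to be induced by activity, and other genes with this property were listed for comparison. Of 20 activity-regulated genes, 18 were tested, 14 were lower and 4 higher (among the latter Inhba, which reached the filter through its Fmr1-KO mean alone), with a median log2 difference of -0.165. At an adjusted p below 0.05 in limma, 1 fell and 0 rose, and at an unadjusted p below 0.05, 7 were lower and 0 higher. The gene that fell was Nptx2, which encodes a secreted pentraxin of excitatory synapses. Nptx2 had 5.87, 6.84 and 5.86 FPKM in WT against 3.84, 3.78 and 3.17 in Fmr1-KO, a log2 difference of -0.77 (standard error 0.10, adjusted p = 0.0306 in limma). The Nptx2 call was lost when any 1 of the 6 libraries was left out, without an FPKM minimum and without the mean-variance trend, and its libraries did not overlap.

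Bdnf, the neurotrophin gene, had 16.4, 15.0 and 13.4 FPKM in WT against 11.7, 10.6 and 10.1 in Fmr1-KO, a log2 difference of -0.46 (standard error 0.09, adjusted p = 0.0753 in limma). Its libraries did not overlap between the genotypes. The immediate early genes Egr4, Arc and Fos had log2 differences of -0.41, -0.28 and -0.20 (adjusted p = 0.242, 0.219 and 0.392 in limma). The Fmr1-KO libraries of Egr4 and Arc lay below those of WT, and those of Fos overlapped. Nr4a1 and Nr4a2 differed by -0.31 and -0.28 (adjusted p = 0.222 and 0.161 in limma), with no overlap between the genotypes. Other immediate early genes differed less. Junb, Npas4, Egr1 and Dusp1 had log2 differences of -0.10, -0.11, 0.10 and 0.03 (adjusted p = 0.619, 0.786, 0.638 and 0.908 in limma). In each of them the libraries of the genotypes overlapped.

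**Figure D4:**
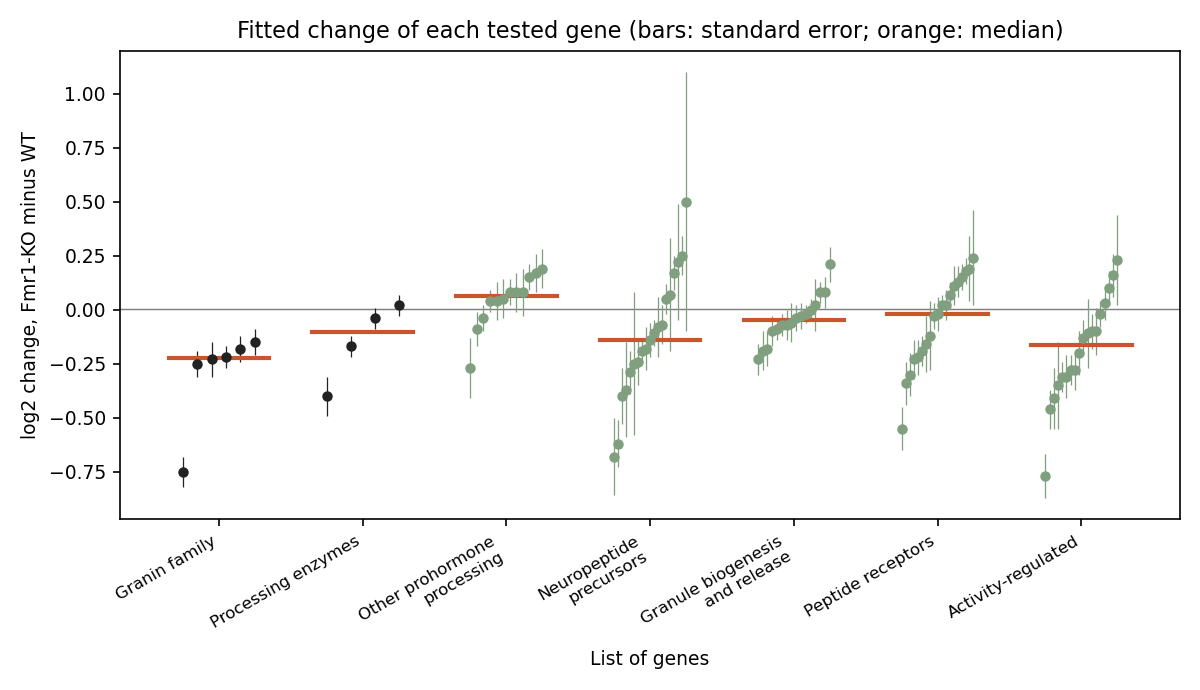
Fitted log2 difference, Fmr1-KO minus WT (y axis), of each granin family and processing enzyme gene (black) and of each tested gene of 5 related lists (green), with standard errors from limma as thin bars, the median of each list as an orange line and the median of all tested loci, 0.005, as a grey line. Medians are -0.221 for the granin family, -0.142 for neuropeptide precursors, -0.165 for activity-regulated genes and 0.066 for other processing genes.

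Markers of cell types were summed in each library, since the 10 genes are expressed in neurons and some of them in glia. The cultures held markers of neurons and of glia. The summed FPKM of 8 excitatory neuron markers was 856 to 894 in WT against 894 to 960 in Fmr1-KO, and that of 8 inhibitory neuron markers was 320 to 344 and 354 to 365. Astrocyte markers (8 genes) summed to 1706 to 2014 in WT against 1768 to 1965 in Fmr1-KO, and oligodendrocyte lineage markers (8 genes) to 346 to 402 and 396 to 439. Endothelial and mural markers (8 genes, 1 of them, Cldn5, listed at 0 throughout) summed to 8.05 to 8.86 and 7.11 to 8.41.

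Microglia markers (9 genes, of which Aif1 and Tmem119 were listed at 0 in all libraries) summed to 4.19 to 6.33 in WT against 1.06 to 2.41 in Fmr1-KO. Of the marker genes tested, 3 of 8 excitatory, 2 of 8 inhibitory, 4 of 8 astrocyte and 2 of 7 oligodendrocyte lineage genes were lower in Fmr1-KO. Only 3 microglia genes (C1qa, C1qb and C1qc) reached the filter of 1 FPKM, and each did so through its WT mean alone, so their tests favour a lower value and are not counted. C1qa, the most abundant of them in WT, had 1.81, 1.0 and 1.49 FPKM in WT against 0.595, 0 (as listed) and 0.602 in Fmr1-KO. None of the tested markers passed an adjusted p of 0.05 in limma. At an unadjusted p below 0.05, 1 excitatory and 2 astrocyte genes were lower, and 1 excitatory, 4 inhibitory and 2 oligodendrocyte lineage genes were higher. Summed neuronal markers were thus higher in Fmr1-KO while Vgf and most of the 10 genes were lower, and the part of cell makeup in the differences was not tested.

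Neighbouring loci were compared with Vgf because alleles close to a gene can differ between mouse lines along with it. Within 500 kb of the start of Vgf, 16 other loci were tested, and none passed an adjusted p of 0.05 in limma. At an unadjusted p below 0.05, 3 were lower and 3 higher. In each direction this was a larger share than over all tested loci, of which 7.77% were lower and 6.99% higher. The median log2 difference of the 16 loci was -0.029. Whether alleles of this region differ between the genotypes was not tested. The largest differences were 0.26 for Gigyf1, at 485 kb (standard error 0.08, adjusted p = 0.188 in limma), and -0.23 for each of Ift22 and Col26a1 (adjusted p = 0.151 and 0.291 in limma). Ap1s1, the nearest locus at 9.7 kb, which encodes an adaptor subunit for vesicle sorting, had a log2 difference of -0.04 (standard error 0.05). Within 1000 kb, 34 loci were tested and 0 passed.

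**Figure D5:**
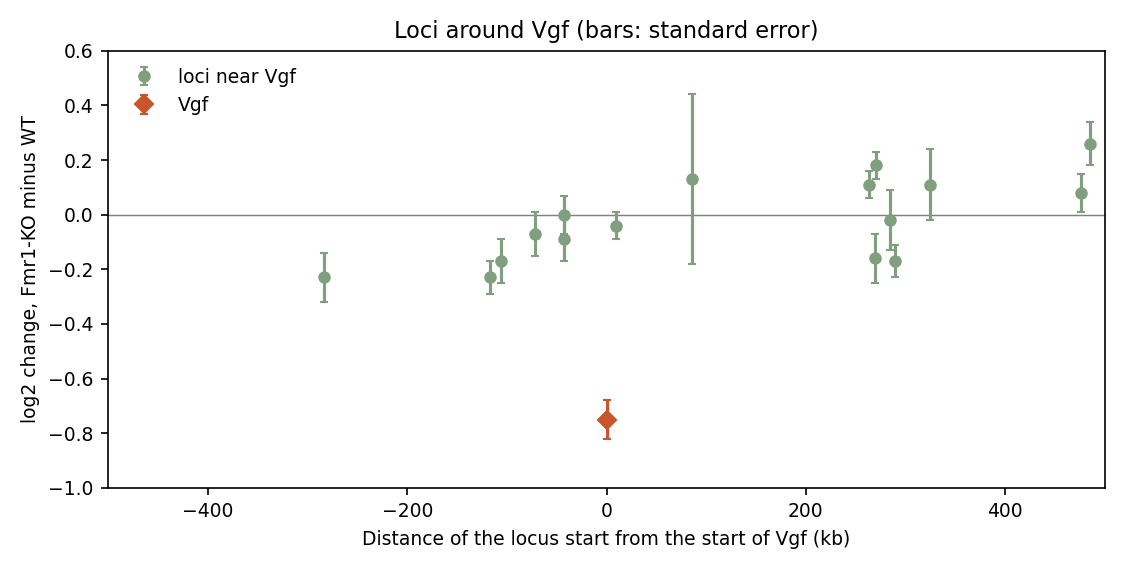
Fitted log2 difference, Fmr1-KO minus WT (y axis, with standard error from limma), of Vgf (orange diamond) and of the 16 tested loci that start within 500 kb of it (green), by distance between starts in kb (x axis). Vgf lies at -0.75 and the neighbours lie between -0.23 and 0.26.

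Likeness to Vgf was measured as Pearson's r of log2(FPKM + 0.1) over the 6 libraries, for the 9372 loci that averaged 5 FPKM or more. As 6 points in 2 genotypes carry little more than the step between genotypes, r is a description, with no test. The loci most like Vgf were Tars (r = 0.994), Itm2c (r = 0.992), Osbp2 (r = 0.991), Syngr1 (r = 0.991) and Tmem128 (r = 0.990), whose log2 differences, from -0.25 to -0.11, were all smaller in size than that of Vgf. Among the other 9 genes described here, Scg2 came nearest to Vgf, at rank 73 (r = 0.958), followed by Scg5 at rank 191, Pam at 224 and Pcsk1 at 242. Chgb, Chga, Scg3 and Pcsk2 ranked 397, 560, 1376 and 1412, and Cpe ranked 6629 with r = -0.428.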

How the data were processed

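RNA-seq gave 3 libraries labelled WT and 3 labelled Fmr1-KO from hippocampal cultures. According to the study's methods, the authors clipped adapters, trimmed reads, aligned them to GRCm38 (TopHat2), assembled genes (Cufflinks) and compared genotypes (Cuffdiff). Versions, annotation, strand and library scaling are not given in sources used here. Of the deposited values, FPKM per library were used here, and the authors' group FPKM, fold changes, p-values and q-values were not. Of 48100 rows, 462 lack a symbol. Table starts, which count from 0, are given from 1.

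With R 4.3.3 and limma 3.58.1 (checked on simulated data), log2(FPKM + 0.1) of loci averaging at least 1 FPKM in WT or Fmr1-KO was fitted with genotype and a mean-variance trend, two-sided, with Benjamini-Hochberg adjustment at 0.05. Depth is unknown, so the spread of 3 libraries sets the precision. Members and lists were chosen with earlier results of these data known. Named are the 10 genes, Fmr1, called genes of each list or else its 3 largest differences, Vgf neighbours and the 5 loci most like Vgf. Also named are Pcsk1n, Cyb561, C3ar1, C1qbp, Bdnf, Fos and Arc. Further immediate early genes (Nr4a1, Nr4a2, Junb, Npas4, Egr1 and Dusp1) were added after values had been seen. No protein sequences were used.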

Additional observations from a re-analysis of the deposited data

How the results depend on the processing

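The log2 difference of Vgf, a description since Vgf was chosen on these libraries, was -0.82 to -0.69 over 13 alternatives (pseudocounts of 1 and 0.01, no FPKM minimum or a minimum of 5, centring of each library, no trend, a replicate block and each library left out), and that of Chga went from -0.23 to -0.14 without Fmr1-KO replicate 2. No difference of the 10 genes moved by more than the SD between replicates. Over all loci, 23 were called lower and 12 higher. Without an FPKM minimum these counts were 9 and 6, without the trend 14 and 7, and with a minimum of 5 they were 34 and 20. With each library left out they were 10 to 14 and 4 to 8. Related list genes called lower numbered 1, and 0 without an FPKM minimum, without the trend, and with any library left out. The median of the 10 genes was -0.233 to -0.173 with a library left out, and the difference of Vgf relative to the other members was -0.62 to -0.53. With the replicate block, 36 loci were called lower and 29 higher, and 2 related list genes, Nptx2 and Bdnf. Deviations of same-numbered libraries correlated at 0.243, 0.058 and 0.08, and those of different-numbered libraries at -0.152 to 0.078. As the same-numbered values were not all above 0.1, the numbers were not taken as pairs, but a pairing is not excluded. The number of reads is unknown, and 3 libraries per genotype limit small differences such as those of Pcsk2 and Cpe.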
